A study of Mus musculus with 14 samples.

Results

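The 10 genes described here encode transcription factors that guide the megakaryocyte and red cell lineages, namely Gata1, Gata2, Klf1, Tal1, Zfpm1, Gfi1b, Lmo2, Runx1, Nfe2 and Fli1. They were taken by gene name from the 27343 genes on the array, which reads them with 13 probes, 2 each for Gata2, Runx1 and Fli1 and 1 for each of the others. The samples were 14 preparations of mouse blood cells and their precursors, each measured on 1 single-colour Agilent array. Rheb1-/- cells came from mice with floxed Rheb1 alleles and the Vav1-cre transgene, which is active in blood-forming cells. The cells they were set against are labelled wild type, and the sources used here do not say whether those mice carried floxed alleles or Cre. There were 3 Rheb1-/- and 3 wild-type samples of myeloid progenitors, 3 Rheb1-/- and 3 wild-type samples of myeloid cells, and 1 Rheb1-/- and 1 wild-type sample of hematopoietic stem cells. The labels give no age for the mice. The series asks what Rheb1, the GTPase that switches on the growth kinase complex mTORC1, does in macrophage differentiation and phagocytosis.

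In blood formation these factors work as an interlocking set. GATA2 is active in stem cells and early progenitors and is replaced by GATA1 as red cells mature. GATA1 acts with its cofactor FOG1, the product of Zfpm1, and within a complex that joins the E-box-binding protein TAL1 to GATA factors through the adaptor LMO2. KLF1 switches on adult globin and red cell membrane genes, GFI1B is a repressor needed for red cells and platelets, NFE2 is needed for platelet release, and RUNX1 and FLI1 act in megakaryocytes and in several white cell lineages.

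The stretch of DNA just before the start site is shown for the 4 members that fell in Rheb1-/- myeloid cells and have an entry in the RefSeq promoter table, since GATA factors are known to regulate several members of the set. Each sequence is 250 bases long, ends at the base before the annotated start and comes from GRCm38.p6. Capitals mark GATA matches on either strand, that is AGATAA and its variant that ends in G, AGATAG, and likewise the letters TGATAA and, with a final G, TGATAG. The Gata1 window lies on the minus strand at chrX:7967911-7968160, Zfpm1 on the plus strand at chr8:122281891-122282140, Gfi1b on the minus strand at chr2:28621983-28622232 and Klf1 on the plus strand at chr8:84901732-84901981.
Gata1: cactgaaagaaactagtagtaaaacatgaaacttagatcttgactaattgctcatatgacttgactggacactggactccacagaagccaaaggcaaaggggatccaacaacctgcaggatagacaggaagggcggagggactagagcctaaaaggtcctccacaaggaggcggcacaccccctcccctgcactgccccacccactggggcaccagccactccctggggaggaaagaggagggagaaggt
Zfpm1: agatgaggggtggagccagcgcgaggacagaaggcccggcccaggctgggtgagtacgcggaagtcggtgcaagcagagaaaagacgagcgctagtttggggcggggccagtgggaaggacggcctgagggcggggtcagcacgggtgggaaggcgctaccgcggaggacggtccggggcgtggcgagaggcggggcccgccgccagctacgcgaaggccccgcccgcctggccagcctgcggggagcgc
Gfi1b: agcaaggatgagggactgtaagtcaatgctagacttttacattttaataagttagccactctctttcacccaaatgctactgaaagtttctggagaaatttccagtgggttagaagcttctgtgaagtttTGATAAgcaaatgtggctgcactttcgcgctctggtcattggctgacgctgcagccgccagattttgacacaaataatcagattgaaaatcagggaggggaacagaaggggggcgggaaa
Klf1: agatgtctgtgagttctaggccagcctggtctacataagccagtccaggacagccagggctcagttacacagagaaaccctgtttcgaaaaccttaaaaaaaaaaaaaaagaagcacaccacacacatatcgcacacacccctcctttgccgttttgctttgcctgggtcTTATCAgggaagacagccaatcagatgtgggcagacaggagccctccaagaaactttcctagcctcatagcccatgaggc
The Klf1 window held 1 GATA match, which began 80 bases before the start site, and the Gfi1b window held 1, which began 120 bases before it. The Gata1 and Zfpm1 windows held 0. The table gave 10 windows for 7 members, with 2 each for Gata2, Tal1 and Runx1, and 3 of the 10 held a GATA match, against 26.5% of all 32851 promoter windows of that length. The letters CCNCNCCC, which KLF factors bind, stood on either strand in 8 of the 10 windows, against 45.9% of all windows. The E-box CANNTG stood in 4 of 10, against 66.2%, and the RUNX letters TGTGGT or TGCGGT stood in 1 of 10, against 18.6%. A match is a description of the letters only.

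The share of spots well above background was 58.5% to 67.6% per array, and no spot was saturated. All 13 probes were well above background on all 14 arrays. Levels are given as the log2 processed intensity minus the 75th percentile of the same array, so that a value of 0 equals that percentile, and levels of different probes are not set against each other. The deleted gene, Rheb, averaged 2.27 in Rheb1-/- and 3.16 in wild-type myeloid cells, 2.88 in Rheb1-/- and 3.96 in wild-type progenitors, and read 2.31 on the Rheb1-/- and 3.51 on the wild-type stem cell array. Of the marker with the highest mean in each cell type, S100a9 averaged 9.44 in Rheb1-/- and 9.60 in wild-type myeloid cells, Mpo 9.496 in Rheb1-/- and 9.449 in wild-type progenitors, and Cd34 read 6.88 on the Rheb1-/- and 6.54 on the wild-type stem cell array. As S100a9 and Mpo were bright in every group, 2 further markers were chosen after their values were seen. The myeloid integrin gene Itgam averaged 4.57 in Rheb1-/- and 4.77 in wild-type myeloid cells, against 1.15 in Rheb1-/- and 0.87 in wild-type progenitors. The stem cell gene Procr read 1.54 on the Rheb1-/- and 1.16 on the wild-type stem cell array, and its means in the other 4 groups lay between -5.24 and -2.81. The arrays lay on 4 slides. The 3 Rheb1-/- myeloid cell arrays lay on slide 4, and the 3 wild-type ones on slide 1. Genotype and slide therefore cannot be told apart in myeloid cells. Among progenitors, 2 arrays of each genotype shared slide 3. The Rheb1-/- and wild-type stem cell arrays lay on different slides and were scanned on different days. Wild-type progenitor array 1 was scanned on the same day as the wild-type stem cell array, and the other 12 arrays together on another day.

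The plot of levels by array shows the pattern that the following paragraphs give in numbers. 7 members, Gata1, Gata2, Klf1, Tal1, Zfpm1, Gfi1b and Lmo2, had their lowest group mean in Rheb1-/- myeloid cells. Runx1 read by its brighter probe also had its lowest group mean there, 0.07 below the wild-type stem cell array. Nfe2, in contrast, had its highest group means in wild-type and then Rheb1-/- myeloid cells. The group means of Fli1 lay between 3.46 and 4.29 by its brighter probe, with the stem cell arrays at the low end.

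**Figure D1:**
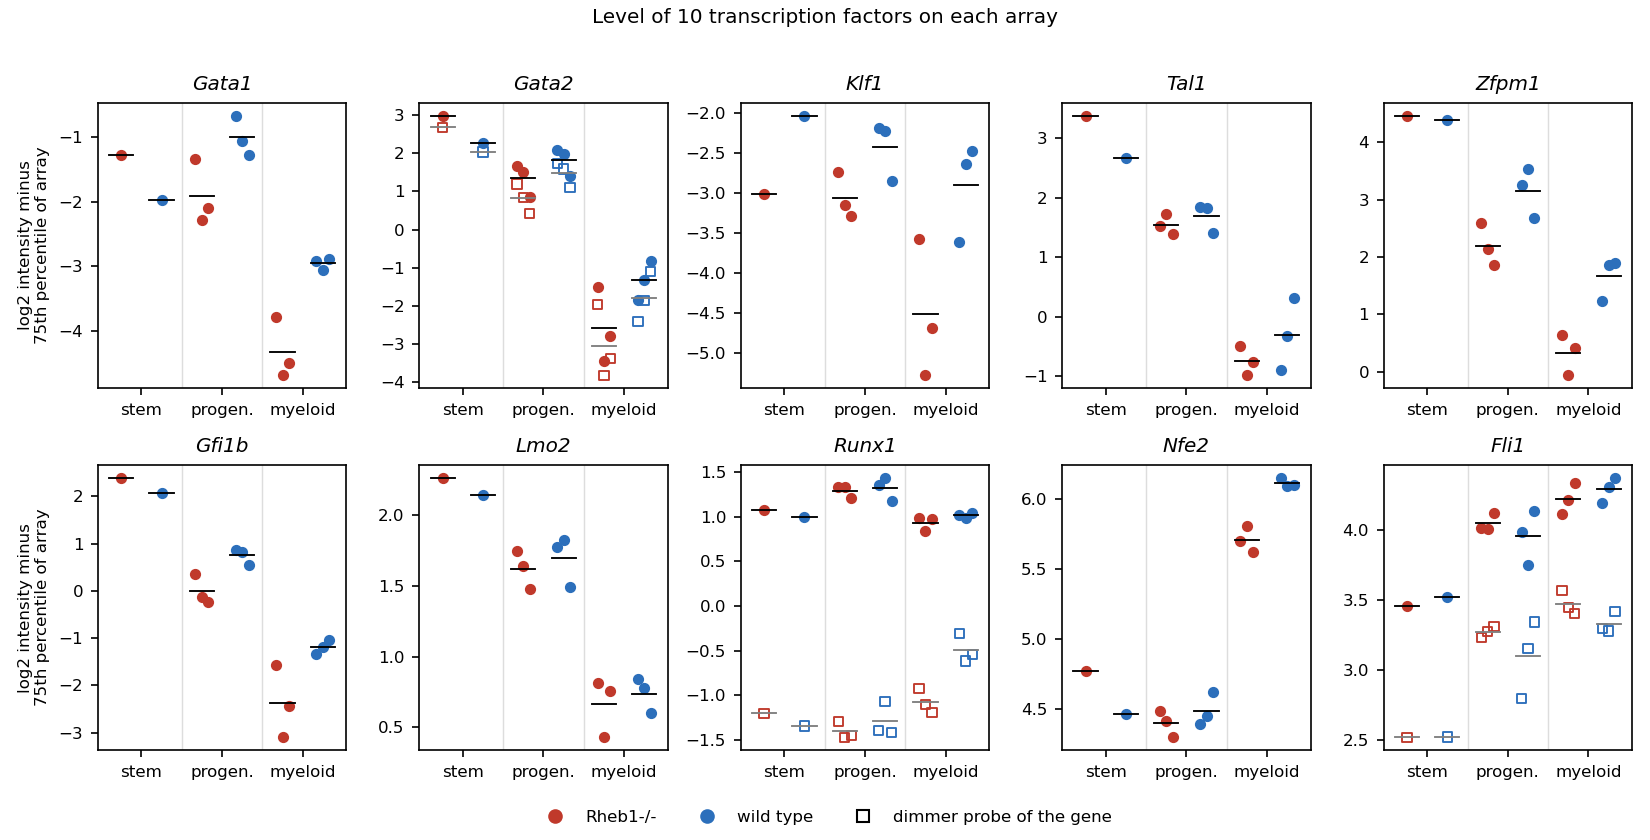
Log2 level (processed intensity relative to the 75th percentile of its array) of the 10 members on each array, with Rheb1-/- arrays in red left of wild-type arrays in blue for stem cells, myeloid progenitors and myeloid cells. Each point is 1 array, lines are group means, and open squares are the dimmer probe of Gata2, Runx1 and Fli1. For Gata1, Zfpm1, Gfi1b and Nfe2 no Rheb1-/- myeloid cell array reaches the wild-type ones.

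In myeloid cells, 5 of the 10 members fell in Rheb1-/- samples and none rose, and the brightest probe of every member had a difference below 0, as had 55.6% of all probes. The 5 were Gata1, Zfpm1, Klf1, Gfi1b and Nfe2. A member counts as called where its brightest probe has a Benjamini-Hochberg adjusted p under 0.05 in a limma fit over all 27144 probes tested. In this contrast 31.6% of all probes were called, 16% lower and 15.6% higher. With quantile normalization the split over all probes was 3628 lower and 5290 higher, against 4332 and 4242 here. The median difference of the members was -0.82, against -0.06 over all probes. The genotypes did not overlap for 5 members, Gata1, Zfpm1, Gfi1b, Nfe2 and Runx1, all lower in Rheb1-/- cells, as for 26.6% of all probes. A further 20.8% of all probes, and no member, did not overlap with higher Rheb1-/- levels. In bulk samples such as these, fewer cells of a type and less RNA per cell cannot be told apart.

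Gata1, the master factor of red cells and megakaryocytes, read -3.78, -4.69 and -4.50 in Rheb1-/- myeloid cells, against -2.91, -3.05 and -2.89 in wild-type myeloid cells. Every Rheb1-/- array lay below every wild-type array. It fell 2.59-fold (log2 -1.37 ± 0.29 SE, n = 3 each, limma adjusted p = 0.00573). The probe lies on mm9 chromosome X, at 7536849 to 7536908 on the minus strand, and is printed at 10 positions of each array, of which 8 to 10 were used. The SD among these spots was between 0.05 and 0.27 on an array. The other members have 1 spot per probe. On Rheb1-/- myeloid arrays 2 and 3 the lowest level of any probe well above background was -5.81 and -5.71, against -4.69 and -4.50 for Gata1. With normexp background correction, which lifts dim signals by an offset, the Gata1 difference was smaller, at -0.65, and still called (limma adjusted p = 0.0239, the range over 22 alternatives being 0.000910 to 0.0239).

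Zfpm1, which encodes the GATA1 cofactor FOG1, read 0.64, -0.06 and 0.41 in Rheb1-/- myeloid cells, against 1.23, 1.86 and 1.89 in wild-type ones. The groups did not overlap. The fall was 2.51-fold (log2 -1.33 ± 0.29 SE, n = 3 each, limma adjusted p = 0.00712). Its probe lies on mm9 chromosome 8, at 124861053 to 124861112 on the plus strand.

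Gfi1b, the repressor needed for red cells and platelets, read -1.58, -3.10 and -2.44 in Rheb1-/- myeloid cells, against -1.34, -1.19 and -1.04 in wild-type ones. All Rheb1-/- arrays were lower, but Rheb1-/- array 1 came close to wild-type array 1. The fall was 2.27-fold (log2 -1.19 ± 0.32 SE, n = 3 each, limma adjusted p = 0.0180). The call was lost without wild-type array 3 (limma adjusted p = 0.0577) or without Rheb1-/- array 3 (limma adjusted p = 0.0536), and the range over 22 alternatives was 0.00164 to 0.0593. The probe lies on mm9 chromosome 2, at 28464982 to 28465041 on the minus strand.

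Klf1, the activator of adult globin genes, read -3.57, -5.27 and -4.69 in Rheb1-/- myeloid cells, against -3.60, -2.64 and -2.47 in wild-type ones. The groups overlapped, since Rheb1-/- array 1 read slightly higher than wild-type array 1. On Rheb1-/- arrays 2 and 3 Klf1 lay near the lowest level of any probe well above background, -5.81 and -5.71. The fall was 3.04-fold (log2 -1.61 ± 0.42 SE, n = 3 each, limma adjusted p = 0.0170). The call was lost when wild-type array 2 or 3 or Rheb1-/- array 2 or 3 was left out, with limma adjusted p between 0.0550 and 0.0625, and held in 17 of 22 alternatives. With normexp correction the difference was -0.84. The probe lies on mm9 chromosome 8, at 87428881 to 87428940 on the plus strand.

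Gata2, the GATA factor of stem cells and early progenitors, has probes on mm9 chromosome 6, plus strand, at 88156835 to 88156894 and at 88156362 to 88156421. Its brighter probe read -1.51, -3.44 and -2.79 in Rheb1-/- myeloid cells, against -1.83, -1.32 and -0.83 in wild-type ones. Rheb1-/- array 1 lay within the wild-type range, and the other two lay below it. The log2 difference was -1.25 ± 0.46 SE and did not pass (n = 3 each, limma adjusted p = 0.0606), and the dimmer probe gave -1.27 (limma adjusted p = 0.0638). That probe read -1.96, -3.82 and -3.37 in Rheb1-/- myeloid cells, against -2.41, -1.85 and -1.10 in wild-type ones, again with Rheb1-/- array 1 within the wild-type range. Without Rheb1-/- array 1 the brighter probe gave -1.79 and passed (limma adjusted p = 0.00708, the range over 22 alternatives being 0.00708 to 0.196).

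Tal1, the E-box factor of the complex, read -0.50, -0.98 and -0.75 in Rheb1-/- myeloid cells, against -0.89, -0.32 and 0.32 in wild-type ones. The groups overlapped, and wild-type array 1 was lower than 2 of the Rheb1-/- arrays. The log2 difference of -0.44 did not pass (95% interval -1.04 to 0.15, limma adjusted p = 0.231). It was -0.74 and passed without wild-type array 1 (limma adjusted p = 0.0371), 1 of 22 alternatives with a call, their range being 0.0371 to 0.682. Its probe lies on mm9 chromosome 4, at 114744223 to 114744283 on the plus strand. Lmo2, the adaptor that holds TAL1 and GATA factors together, read 0.81, 0.43 and 0.76 in Rheb1-/- myeloid cells, against 0.84, 0.78 and 0.60 in wild-type ones. Its log2 difference was -0.07 with a 95% interval of -0.37 to 0.23 (limma adjusted p = 0.707), and the ends of its probe lie 4714 bases apart on mm9 chromosome 2, plus strand, at 103816341 to 103821054. For both genes the intervals hold 0.

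Nfe2, which encodes the large subunit of NF-E2, read 5.70, 5.80 and 5.62 in Rheb1-/- myeloid cells, against 6.15, 6.09 and 6.10 in wild-type ones. The arrays of a genotype lay close together, and the genotypes did not overlap. The fall was 1.32-fold (log2 -0.41 ± 0.09 SE, n = 3 each, limma adjusted p = 0.00808). The probe lies on mm9 chromosome 15, at 103078838 to 103078897 on the minus strand. Nfe2, Gata1, Zfpm1 and the dimmer Runx1 probe were called in all the alternatives in which they were fitted.

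Runx1, whose product binds DNA with CBFB, was read differently by its probes, which is why the dimmer one is shown here. The brighter probe, on mm9 chromosome 16, minus strand, at 92604413 to 92604472, is listed with 4 RefSeq transcripts. The dimmer one is listed with 2 of those 4, and its ends lie 30453 bases apart, at 92614003 to 92644455 on the same strand.
Runx1 probe 2: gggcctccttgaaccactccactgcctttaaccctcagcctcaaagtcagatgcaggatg
The dimmer probe read -0.93, -1.11 and -1.19 in Rheb1-/- myeloid cells, against -0.31, -0.62 and -0.54 in wild-type ones, with no overlap. It fell 1.5-fold (log2 -0.59 ± 0.13 SE, n = 3 each, limma adjusted p = 0.00684). The brighter probe read 0.98, 0.84 and 0.97 in Rheb1-/- myeloid cells, against 1.02, 0.98 and 1.05 in wild-type ones. The genotypes did not overlap here either, though narrowly, since Rheb1-/- array 1 and wild-type array 2 lay side by side. Its difference of -0.09 did not pass (95% interval -0.28 to 0.11, limma adjusted p = 0.487). The intervals of the probes do not meet, but the difference between probes was not tested.

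Fli1, an ETS factor of megakaryocytes and other blood cells, has probes on mm9 chromosome 9, minus strand, at 32231283 to 32231342 and at 32229857 to 32229916. The brighter one read 4.12, 4.22 and 4.34 in Rheb1-/- myeloid cells, against 4.19, 4.31 and 4.37 in wild-type ones. Its difference was -0.07 with a 95% interval of -0.31 to 0.18 (limma adjusted p = 0.665), and the dimmer one gave 0.14 (limma adjusted p = 0.419). The dimmer probe read 3.57, 3.45 and 3.402 in Rheb1-/- myeloid cells, against 3.29, 3.28 and 3.42 in wild-type ones. The genotypes overlapped by both probes.

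**Figure D2:**
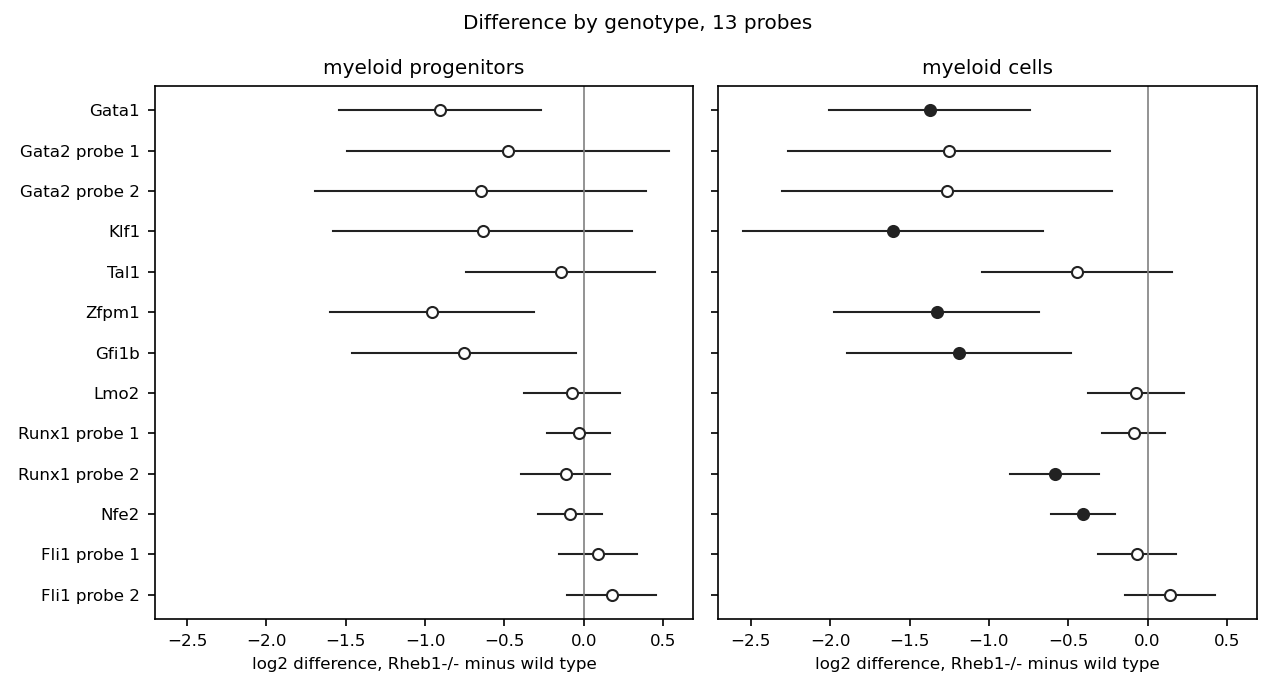
Log2 difference, Rheb1-/- minus wild type, for the 13 probes in myeloid progenitors (left) and myeloid cells (right), from the limma fit over 12 arrays. Points are estimates, bars are 95% intervals and filled points have an adjusted p under 0.05. In myeloid cells Gata1, Zfpm1, Klf1, Gfi1b, Nfe2 and the dimmer Runx1 probe are filled, and in progenitors no probe is.

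In myeloid progenitors none of the 10 members was called, while 3 had an unadjusted p under 0.05 in limma, namely Gata1, Zfpm1 and Gfi1b. Rheb, the deleted gene, was called in myeloid cells, at -0.88 (limma adjusted p = 0.0125). In progenitors its difference was -1.08 and was not called either (limma adjusted p = 0.106). Over all probes 0.0921% were called, 25 of 27144 (0.0221% lower and 0.07% higher), and 3078 had an unadjusted p under 0.05. The members' median difference was -0.31, against 0.02 over all probes, and 9 of 10 lay below 0, as did 44.8% of all probes. Gata1, Zfpm1 and Gfi1b were also the 3 members whose genotypes did not overlap, with lower Rheb1-/- levels, as for 7.7% of all probes. Higher levels without overlap were found for no member and for 11.5% of all probes.

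Gata1 read -1.33, -2.29 and -2.10 in Rheb1-/- progenitors, against -0.67, -1.06 and -1.27 in wild-type ones. Rheb1-/- array 1 was just below the lowest wild-type array. The difference was -0.91 ± 0.29 SE (n = 3 each, limma adjusted p = 0.272), and on slide 3, with 2 arrays of each genotype, it was -0.64. Zfpm1 read 2.60, 2.14 and 1.85 in Rheb1-/- progenitors, against 3.25, 3.54 and 2.67 in wild-type ones. Its difference was -0.96 ± 0.29 SE (n = 3 each, limma adjusted p = 0.258), and -0.73 on slide 3. Gfi1b read 0.35, -0.12 and -0.24 in Rheb1-/- progenitors, against 0.87, 0.83 and 0.55 in wild-type ones. Its difference was -0.75 ± 0.32 SE (n = 3 each, limma adjusted p = 0.406), and -0.58 on slide 3. All 3 thus read lower in each Rheb1-/- array than in each wild-type one, also on the shared slide, where the median over all probes was 0.01. Without wild-type progenitor array 1, the one scanned on another day, the differences were -0.74 for Gata1, -0.91 for Zfpm1 and -0.69 for Gfi1b.

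Gata2 read 1.67, 1.505 and 0.84 in Rheb1-/- progenitors, against 2.09, 1.97 and 1.39 in wild-type ones, by its brighter probe. The difference was -0.48 (limma adjusted p = 0.761) and it was -0.09 on slide 3. Klf1 read -2.74, -3.16 and -3.29 in Rheb1-/- progenitors, against -2.19, -2.23 and -2.85 in wild-type ones, with a difference of -0.64 (limma adjusted p = 0.628) and -0.41 on slide 3. For both genes the genotypes overlapped. The dimmer Gata2 probe read 1.19, 0.85 and 0.42 in Rheb1-/- progenitors, against 1.72, 1.59 and 1.10 in wild-type ones, with a difference of -0.65 (limma adjusted p = 0.661).

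The remaining 5 members overlapped between the genotypes in progenitors. Tal1 read 1.51, 1.72 and 1.39 in Rheb1-/- progenitors, against 1.84, 1.82 and 1.40 in wild-type ones. Lmo2 read 1.75, 1.64 and 1.48 in Rheb1-/- progenitors, against 1.77, 1.82 and 1.49 in wild-type ones. In both genotypes array 3 was the lowest for these genes. Nfe2 read 4.48, 4.42 and 4.30 in Rheb1-/- progenitors, against 4.39, 4.45 and 4.62 in wild-type ones. Runx1 read 1.34, 1.33 and 1.21 in Rheb1-/- progenitors, against 1.36, 1.44 and 1.18 in wild-type ones, by its brighter probe. For neither gene did the genotypes separate. Fli1 read 4.02, 4.01 and 4.12 in Rheb1-/- progenitors, against 3.99, 3.75 and 4.14 in wild-type ones, by its brighter probe. The dimmer Runx1 probe had a difference of -0.11 and the dimmer Fli1 probe of 0.18. The differences were -0.14 for Tal1 (95% interval -0.74 to 0.45), -0.07 for Lmo2 (-0.37 to 0.23), -0.03 for Runx1 (-0.23 to 0.17), -0.09 for Nfe2 (-0.29 to 0.11) and 0.09 for Fli1 (-0.15 to 0.34). On slide 3 the values were on the other side of 0 for Tal1, at 0.0086, for Lmo2, at 0.037, and for Runx1, at 0.028.

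Whether the genotype difference itself differed between myeloid cells and progenitors was tested in the same fit. None of the 10 members was called, against 9.4% of all probes, 4.8% lower and 4.6% higher. That split was 1303 lower and 1249 higher probes, and 1061 lower and 1892 higher with quantile normalization. Of the members 1, Nfe2, had an unadjusted p under 0.05 in limma, and so did 7701 of all probes. For Nfe2 the difference was -0.41 in myeloid cells and -0.09 in progenitors, a gap of -0.32 ± 0.13 SE (limma adjusted p = 0.137). Quantile normalization called it, at -0.42 (limma adjusted p = 0.0492, the range over 21 alternatives being 0.0492 to 0.348). For Gata1 the gap was -0.47, with a 95% interval of -1.36 to 0.43 (0.082 with normexp correction), and for Klf1 it was -0.97, with an interval of -2.30 to 0.37. The dimmer Runx1 probe had a gap of -0.47 ± 0.18 SE (limma adjusted p = 0.118). The calls in myeloid cells and their absence in progenitors do not show that the effects differ.

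The second axis of the design was cell type. In Rheb1-/- samples 9 of 10 members were called between myeloid cells and progenitors, 8 lower and 1 higher, where 68.1% of all probes were called, 37.7% lower and 30.4% higher. In wild-type samples 9 were called as well, 7 lower and 2 higher, against 76.9% of all probes, 38.1% lower and 38.8% higher. The members' median difference was -1.66 in Rheb1-/- samples, against -0.08 over all probes, and -1.23 in wild-type samples, against 0.04 over all probes. In Rheb1-/- samples the cell types did not overlap for 8 members with lower and 1 with higher levels in myeloid cells, and for 40.1% and 32.9% of all probes. In wild-type samples they did not overlap for 7 members with lower and 2 with higher levels, and for 38.9% and 40.1% of all probes. In wild-type samples the cell types shared no slide. In Rheb1-/- samples 1 progenitor array shared slide 4 with the myeloid cell arrays.

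Gata2 fell most among the members in both genotypes. It averaged -2.58 ± 0.98 in Rheb1-/- myeloid cells and 1.34 ± 0.44 in Rheb1-/- progenitors (SD, n = 3 each), a 15.1-fold fall (log2 -3.92, limma adjusted p = 2.66e-05). In wild-type samples it averaged -1.33 ± 0.50 in myeloid cells and 1.82 ± 0.37 in progenitors (SD, n = 3 each), an 8.86-fold fall (log2 -3.15, limma adjusted p = 9.91e-05). The dimmer probe gave -3.87 in Rheb1-/- and -3.26 in wild-type samples. On the same log2 scale Gata1 fell by 2.42 in Rheb1-/- and by 1.95 in wild-type samples, and with normexp correction its fall in Rheb1-/- samples was smaller (-1.22). Tal1 fell by 2.28 in Rheb1-/- and by 1.98 in wild-type samples. Gfi1b fell by 2.37 in Rheb1-/- and by 1.94 in wild-type samples. Zfpm1 fell by 1.87 in Rheb1-/- and by 1.49 in wild-type samples. Lmo2 fell by 0.96 in both. Each of these had a limma adjusted p under the threshold in both genotypes, and its cell types did not overlap.

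Klf1 was called between cell types in Rheb1-/- samples only. Whether Klf1 differed in this from the other members was not tested. In wild-type samples it averaged -2.91 ± 0.61 in myeloid cells and -2.42 ± 0.37 in progenitors (SD, n = 3 each), and the difference of -0.48 did not pass (95% interval -1.43 to 0.46, limma adjusted p = 0.317). In Rheb1-/- samples it averaged -4.51 ± 0.86 in myeloid cells and -3.06 ± 0.29 in progenitors (SD, n = 3 each), a 2.73-fold fall (limma adjusted p = 0.0112). With slide as a block that difference was -1.23 and did not pass (limma adjusted p = 0.142, the range over 23 alternatives being 0.00124 to 0.142), and with normexp correction it was -0.53.

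Nfe2 ran the other way. It averaged 5.71 ± 0.09 in Rheb1-/- myeloid cells and 4.40 ± 0.09 in Rheb1-/- progenitors (SD, n = 3 each), a 2.48-fold rise (limma adjusted p = 6.96e-07). It averaged 6.11 ± 0.03 in wild-type myeloid cells and 4.49 ± 0.12 in wild-type progenitors (SD, n = 3 each), a 3.09-fold rise (limma adjusted p = 8.92e-08). Fli1 rose by 0.33 in wild-type samples by its brighter probe (limma adjusted p = 0.0179). That call was lost without wild-type progenitor array 2 (limma adjusted p = 0.0738) and without wild-type myeloid array 3 (limma adjusted p = 0.0577, the range over 22 alternatives being 0.00629 to 0.0738). In Rheb1-/- samples the Fli1 difference of 0.17 did not pass (limma adjusted p = 0.184). The Runx1 probes went in opposite directions. The brighter one fell by 0.36 in Rheb1-/- samples (limma adjusted p = 0.00422) and by 0.31 in wild-type samples (limma adjusted p = 0.00922). The dimmer one rose by 0.33 in Rheb1-/- samples (limma adjusted p = 0.0381) and by 0.80 in wild-type samples (limma adjusted p = 0.000181). With slide as a block neither Runx1 call held in Rheb1-/- samples, with limma adjusted p of 0.115 for the brighter and 0.134 for the dimmer probe. Over all alternatives the call there held in 22 of 23 for the brighter and in 16 of 22 for the dimmer probe.

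**Figure D3:**
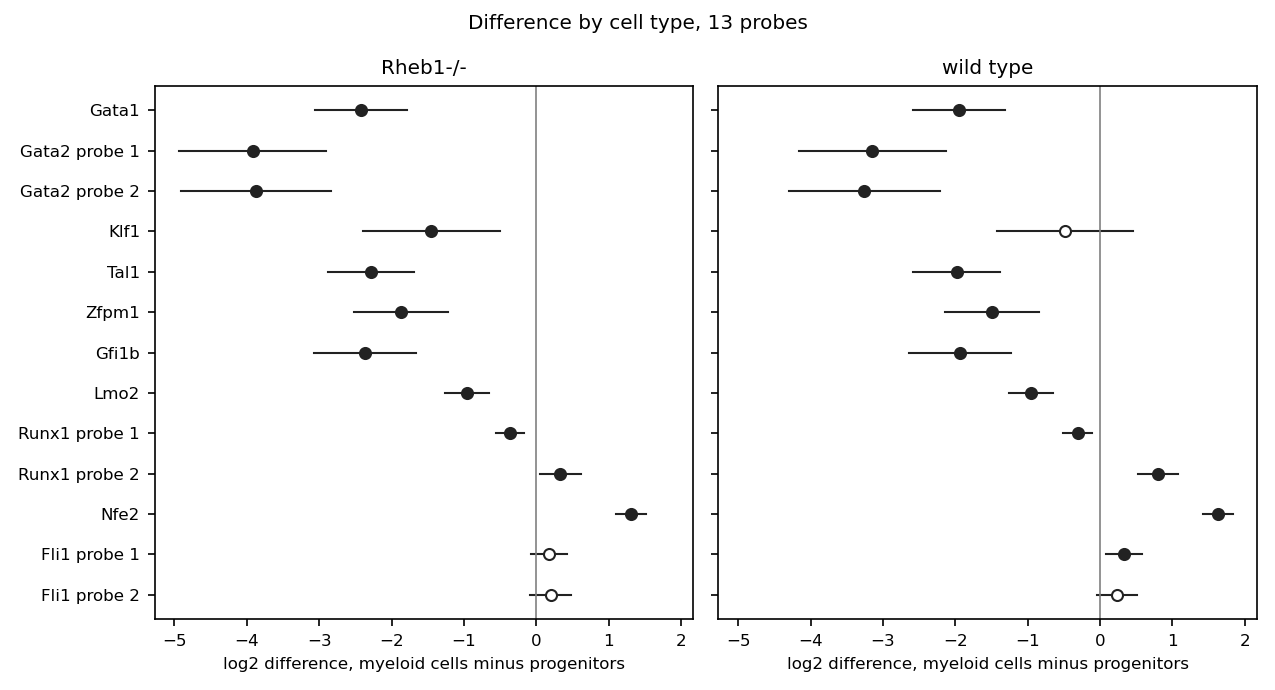
Log2 difference, myeloid cells minus myeloid progenitors, for the 13 probes in Rheb1-/- (left) and wild-type samples (right), from the same limma fit. Points are estimates, bars are 95% intervals and filled points have an adjusted p under 0.05. Gata2 lies farthest left, Nfe2 lies right of 0 and the Runx1 probes lie on opposite sides of 0.

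The stem cell arrays, 1 per genotype, allow no test. Over 1.5-fold, Gata1, Gata2 and Tal1 were higher and Klf1 was lower on the Rheb1-/- array, where 14.7% of 25973 probes were that much higher and 10.1% that much lower. Gata1 read -1.28 on the Rheb1-/- and -1.97 on the wild-type array. Gata2 read 2.98 on the Rheb1-/- and 2.28 on the wild-type array by its brighter probe. Tal1 read 3.37 on the Rheb1-/- and 2.66 on the wild-type array. Klf1 read -3.01 on the Rheb1-/- and -2.04 on the wild-type array. The other 6 members lay between -0.06 for Fli1 and 0.33 for Gfi1b. Genes of mature cells also differed between these arrays. In units of the 75th percentile, the summed level of 38 erythroid genes was 122 on the Rheb1-/- and 394 on the wild-type array. That of 15 mature myeloid genes was 708 on the Rheb1-/- and 1444 on the wild-type array, and that of 9 B cell genes was 30.8 on the Rheb1-/- and 101.2 on the wild-type array. Their part in the member values was not tested. In the order of all 6 groups, Gata2, Tal1, Zfpm1, Gfi1b and Lmo2 were highest on the 2 stem cell arrays, Gata1 in wild-type progenitors, and Fli1 lowest on the stem cell arrays.

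Within a group several members shared their highest and lowest arrays. In Rheb1-/- myeloid cells, array 1 was the highest for 8 of the 10 members and array 2 the lowest for 8. Among Rheb1-/- progenitors array 1 was the highest for 8 and array 3 the lowest for 8. In wild-type myeloid cells array 3 was the highest for 8, and in wild-type progenitors array 3 was the lowest for 8. The share of all probes with the same highest or lowest array is not given here, so these counts have no background beside them. Deviations from the group means over the 12 replicated arrays, which share their scaling, correlated at 0.95 for Gata2 with Klf1, 0.93 for Gata2 with Gfi1b, 0.90 for Klf1 with Gfi1b and 0.84 for Gata1 with Gfi1b. Klf1 with Zfpm1 correlated at 0.86. All other pairs were lower, such as Tal1 with Gata1 at 0.28 and with Lmo2 at 0.11. Fli1 ran against the members other than Nfe2, between -0.64 with Runx1 and -0.02 with Tal1. Nfe2 had a correlation of 0.04 with Fli1, and between -0.43, with Runx1, and -0.10, with Gata1, with the other members. The summed level of the erythroid genes was 1475, 442 and 948 on Rheb1-/- myeloid arrays 1, 2 and 3, against 2144, 2847 and 2995 on the wild-type ones. There its highest and lowest Rheb1-/- arrays were those of most members. In progenitors it was 127, 90.0 and 111 on Rheb1-/- arrays 1, 2 and 3, against 144, 140 and 106 on the wild-type ones, so that the lowest Rheb1-/- array was array 2 and not array 3. Over 12 arrays, deviations of the erythroid sum on the log2 scale correlated with those of Gfi1b at 0.93, Klf1 at 0.89 and Gata2 at 0.84. The values were 0.73 for Zfpm1, 0.72 for Gata1, 0.62 for Lmo2, 0.56 for Runx1 and 0.55 for Tal1. For Fli1 the correlation was -0.15 and for Nfe2 -0.49. The part of red cell precursors in the member values was not tested.

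Among 14261 other genes, those whose pattern over the 14 arrays was most like a member's were named by Pearson correlation, as a description in which cell type dominates. For Gata1 they were Itga2b, the platelet integrin chain, at 0.972, St14 at 0.970 and Ufsp1 at 0.966. For Gata2 they were Icam4, a red cell adhesion molecule, at 0.9904, Plekhg5 at 0.9901 and Emid1 at 0.987. For Klf1 they were the water channel gene Aqp1 at 0.939, Tnfrsf25 at 0.899 and the carbonic anhydrase gene Car1 at 0.897. Itpr3, a calcium channel gene, was nearest to both Zfpm1, at 0.989, and Gfi1b, at 0.988. Mmrn1, which encodes a platelet granule protein, reached 0.987 for Zfpm1. Tal1 was nearest to Myct1, at 0.992, and to Sox4, at 0.989. Lmo2 was nearest to Fam171a1, at 0.991, Runx1 to Tmem184c, at 0.967, Nfe2 to Dennd5a, at 0.995, and Fli1 to Gadd45b, at 0.974.

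Red cell and platelet genes, many of them known targets of these factors, are given beside the members. Of 38 erythroid genes tested, 26 fell and none rose in Rheb1-/- myeloid cells, with a median of -1.85. Over all probes 16% fell and 15.6% rose in that contrast. Epor, the erythropoietin receptor, fell 3.74-fold (log2 -1.90 ± 0.33 SE, limma adjusted p = 0.00259). Hemgn, a nuclear protein of red cell precursors, fell 3.90-fold (limma adjusted p = 0.00180), Aqp9 3.95-fold (limma adjusted p = 0.000850) and Cldn13 4.91-fold (limma adjusted p = 0.00195). In progenitors none of the 38 was called, 6 were lower and 1 was higher at an unadjusted p under 0.05 in limma, and the median was -0.50. Of all 27144 probes 3078 had such a p there, in either direction. Between cell types, 15 erythroid genes were higher and 11 lower in Rheb1-/- myeloid cells than in Rheb1-/- progenitors. Of all probes 30.4% were higher and 37.7% lower, so the share called was near that of all probes, 68.1%. In wild-type samples 24 erythroid genes were higher and 8 lower in myeloid cells, against 38.8% and 38.1% of all probes. The erythroid sum lay between 442 and 1475 in Rheb1-/- and between 2144 and 2995 in wild-type myeloid cells. It lay between 90.0 and 127 in Rheb1-/- and between 106 and 144 in wild-type progenitors. At least 31 of the 38 were well above background on every array. Gata1, Gata2, Tal1, Gfi1b and Zfpm1 were thus lower in wild-type myeloid cells than in wild-type progenitors, while 24 of 38 erythroid genes were higher there.

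Megakaryocyte and platelet genes had lower values in both cell types. Of 28 tested, 14 fell and none rose in Rheb1-/- myeloid cells, with a median of -0.81. In that contrast 16% of all probes fell and 15.6% rose. The granule gene Nbeal2 fell 2.03-fold (limma adjusted p = 0.00210), the platelet receptor genes Clec1b 2.11-fold (limma adjusted p = 0.00426) and Gp1bb 1.95-fold (limma adjusted p = 0.00549), and the chemokine gene Ppbp 4.57-fold (limma adjusted p = 0.0106). In progenitors none was called, but 22 were lower and none was higher at an unadjusted p under 0.05 in limma, and the median was -1.13. Of all 27144 probes 3078 had such a p in progenitors, in either direction. There Treml1 had a difference of -2.02 (limma adjusted p = 0.0820), Clec1b of -1.37 and Gp1bb of -1.27 (limma adjusted p = 0.0571 each) and Gng11 of -0.50 (limma adjusted p = 0.0820). Their summed level lay between 24.5 and 37.4 in Rheb1-/- and between 58.5 and 80.0 in wild-type progenitors, without overlap. In myeloid cells it lay between 59.8 and 70.0 in Rheb1-/- and between 90.4 and 96.9 in wild-type samples. Its deviations correlated with those of Gata1 at 0.84 and of Zfpm1 at 0.80 over the 12 arrays. For the other members the correlations lay between -0.46, for Fli1, and 0.72, for Runx1.

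Among partners and relatives of the 10 factors more genes rose than fell. Of 38 tested, 14 rose and 2 fell in Rheb1-/- myeloid cells, with a median of 0.09. In that contrast 15.6% of all probes rose and 16% fell. The RUNX family gene Runx3 rose 1.71-fold (limma adjusted p = 0.000957), Mta1 1.68-fold (limma adjusted p = 0.00126) and Rbbp7 1.59-fold (limma adjusted p = 0.00196), the last pair encoding subunits of the NuRD repressor. Gfi1, the relative of Gfi1b that acts in granulocytes, rose 1.66-fold (limma adjusted p = 0.00244), while Gfi1b fell. In progenitors none was called, and Lmo1, a relative of Lmo2, had a difference of 0.59 there (limma adjusted p = 0.218). Of 11 factors listed for myeloid fates, such as Spi1 and Cebpa, 1 rose and 1 fell in Rheb1-/- myeloid cells. Gfi1 rose, and it is also counted among the partners and relatives above. Nab2 fell (log2 -1.22, limma adjusted p = 0.0470), and its probe was well above background on 12 of the 14 arrays. In progenitors none of these 11 was called.

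Mast cells, basophils and eosinophils also use Gata1 and Gata2, and markers of these and other cell types differed between the myeloid cell samples. Of 19 mast cell, basophil and eosinophil genes tested, 7 fell and none rose in Rheb1-/- myeloid cells, with a median of -0.87. In that contrast 16% of all probes fell and 15.6% rose, 31.6% in either direction. The basophil protease gene Mcpt8 fell 2.96-fold (limma adjusted p = 0.00238), the eosinophil receptor gene Ccr3 4.61-fold (limma adjusted p = 0.00327) and Cpa3 2.83-fold (limma adjusted p = 0.0146). In progenitors none was called, and the median was -0.56. Their summed level lay between 177 and 218 in Rheb1-/- and between 199 and 273 in wild-type myeloid cells, and between 555 and 1037 in Rheb1-/- and between 897 and 1087 in wild-type progenitors. Over the 12 arrays its deviations correlated with those of Gata1 at 0.74. Gata1 correlated at 0.72 with the erythroid and at 0.84 with the megakaryocyte sum. For the other members the correlations with the mast cell, basophil and eosinophil sum lay between -0.26, for Tal1, and 0.42, for Gfi1b. Of 8 B cell genes 6 fell and of 9 T and NK cell genes 7 fell in Rheb1-/- myeloid cells, and none rose. The B cell sum lay between 8.16 and 11.6 in Rheb1-/- and between 15.4 and 31.2 in wild-type myeloid cells. The T and NK cell sum lay between 0.716 and 1.11 in Rheb1-/- and between 3.02 and 4.09 in wild-type myeloid cells. Of 11 progenitor genes 9 rose and 1 fell there, with sums between 1193 and 1637 in Rheb1-/- and between 687 and 828 in wild-type myeloid cells. The part of these cell types in the member values was not tested.

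**Figure D4:**
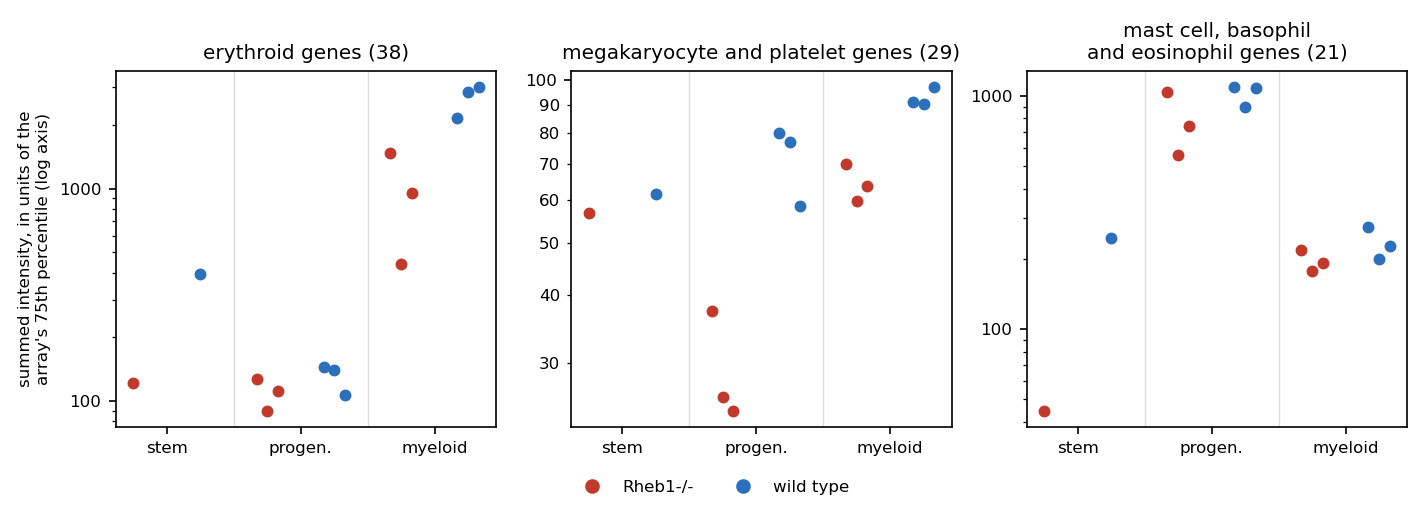
Summed intensity of 38 erythroid, 29 megakaryocyte and platelet, and 21 mast cell, basophil and eosinophil genes on each array, in units of the array's 75th percentile on a log axis, with Rheb1-/- arrays in red left of wild-type arrays in blue. The erythroid sum in Rheb1-/- myeloid cells (442 to 1475) lies below that in wild-type myeloid cells (2144 to 2995), and the megakaryocyte sum in Rheb1-/- progenitors (24.5 to 37.4) below that in wild-type progenitors (58.5 to 80.0).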

How the data were processed

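Cy3-labelled total RNA was hybridised to 14 single-colour Agilent arrays. The intensity used, the processed signal, was background-corrected by Feature Extraction and not scaled between arrays, per the file headers. The headers name version 10.7.3.1 and the submitters' processing notes name 9.1. The authors' deposited table holds log2 values of 41265 probes (median 5.93 in every column, correlation with the scanner log2 intensity 0.998 to 1.00) and served as an alternative. The sources used here do not give its background treatment. Probe positions are those of the files, in mm9.

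Of 45018 spots per array, 1639 controls and 79 to 195 outlier spots were left out, and spots of a probe were averaged (41174 probes). Each log2 intensity, less the 75th percentile of its array, was fitted with limma 3.58.1 (R 4.3.3) over the 12 replicated arrays, with 1 mean per group. Kept were 27144 probes, those called above background throughout 1 group or more and measured on at least 2 arrays of each. Calls are at a Benjamini-Hochberg adjusted p under 0.05 over all probes, two-sided. In simulated data for the myeloid cell genotype contrast (27108 probes), the fit recovered 62% of 100 changes of log2 1 and 91% of 100 of log2 2, with 9 false calls. Far fewer probes were changed there than the 31.6% called in the data. The adjusted threshold is then stricter, so these rates do not give the recovery in the data. Alternatives changed the background correction, normalization, filter, probe choice, slide and replicate blocks, and the arrays used. The number of arrays limits the precision. A gene's call is that of its brightest probe. From each list the up to 4 genes of smallest p per genotype contrast were available for naming, and for each member the 3 most correlated genes. The 10 members and the gene lists were chosen with earlier results of these data known. Since the labels name no animals, p-values measure only the spread between these samples. List names came from the arrays' annotation updated through RefSeq.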

Additional observations from a re-analysis of the deposited data

How the results depend on the processing

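The count of members called in progenitors stayed at 0 in all 24 alternatives. In myeloid cells it was 5 and lay between 3 and 6 with 1 array left out, and it was 3 when only the 6 myeloid cell arrays were fitted, where Klf1 and Gfi1b lost their calls (limma adjusted p = 0.0576 and 0.0593). Leaving out wild-type myeloid array 3 or Rheb1-/- myeloid array 3 also gave 3. For the difference of the genotype differences the count was 1 with quantile normalization and 0 in the others. Between cell types it lay between 7 and 9 in Rheb1-/- and between 8 and 9 in wild-type samples. Gata2 passed in myeloid cells with slide as a random block (limma adjusted p = 0.0140), with an intensity trend and robust prior (limma adjusted p = 0.0436) and over probes above background on all 12 arrays (limma adjusted p = 0.0421). The random block's consensus correlation was -0.14, and a fixed slide block could not be fitted for myeloid cells by genotype.

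Values near 0 changed sign. With normexp the gap between genotype differences was 0.082 for Gata1 and 0.039 for the dimmer Fli1 probe. In progenitors, slide as a block and the arrays of slide 3 alone gave 0.0086 for Tal1, 0.037 for Lmo2 and 0.028 for Runx1. With 1 array left out, progenitor values lay between -0.10 and 0.026 for Runx1 and between -0.013 and 0.18 for Fli1, and the myeloid cell value of Lmo2 between -0.15 and 0.045. Gaps lay between -0.60 and 0.0092 for Tal1, -0.073 and 0.12 for Lmo2, -0.11 and 0.017 for Runx1, and -0.16 and 0.12 for the dimmer Fli1 probe. The cause of these changes was not tested.

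The replicate number as a block gave 0 members in progenitors, 5 in myeloid cells and 0 for the gap, and 9 in each genotype between cell types, the same members as without it. Deviations of same-numbered samples correlated at -0.16 to 0.13, so the numbers were not taken to pair the samples. All probes called in progenitors numbered 25 and lay between 0 and 91 over the alternatives, and those for the gap numbered 2552 and lay as low as 1010, with no filter. With 1 array left out the gap count lay between 1137 and 2850.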

Other observations

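The lists of stem cell and mature myeloid genes had no larger share of calls in Rheb1-/- myeloid cells than the 31.6% of all probes, and their named genes are given as values. Of 19 stem cell genes tested, 2 rose and 4 fell. The homeobox gene Hoxa9 rose 3.56-fold (log2 1.83 ± 0.30 SE, limma adjusted p = 0.00189) and the receptor gene Kit 1.85-fold (limma adjusted p = 0.000539). Ly6a, which encodes the surface protein Sca-1, fell 1.93-fold (limma adjusted p = 0.000515), and Txnip, a binder of thioredoxin, fell 1.45-fold (limma adjusted p = 0.00741). Of 15 mature myeloid genes, 1 rose and 3 fell. Cd14, the lipopolysaccharide co-receptor, rose 4.59-fold (limma adjusted p = 0.00591), while the protease gene Mmp9 fell 1.95-fold (limma adjusted p = 0.00435) and the chemokine receptor gene Cxcr2 1.66-fold (limma adjusted p = 0.0326). In progenitors none of these genes was called. Among the progenitor genes that rose in Rheb1-/- myeloid cells, the granule protease genes Prtn3 rose 3.05-fold (limma adjusted p = 0.000731) and Ctsg 2.61-fold (limma adjusted p = 0.000481).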
